A study of Mus musculus with 6 samples.

Results

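The genes described here are the inhibitors of cyclin-dependent kinases (CDKs) Cdkn1a, Cdkn1b, Cdkn1c, Cdkn2a, Cdkn2b and Cdkn2c and the Rb family genes Rb1, Rbl1 and Rbl2. They were taken by symbol, with earlier results of these data known, and are 9 of the 23420 genes with a row in the count tables. All 9 had reads in all 6 libraries and passed the filter on low counts. The libraries came from 2 subpopulations of dysplastic stem cells (DSCs), DP-DSCs and TP-DSCs, which were sorted by flow cytometry from Meta4, a mouse line of dysplastic epithelial organoids, with 3 libraries of polyadenylated RNA from each. Beyond what the labels say, DP and TP are read here, from knowledge of the study, as double and triple positive for the surface antigens of the sort (CD133 and CD166, with CD44v6 added in TP-DSCs), and the line as one grown from mouse stomach. The labels give no genotype, age or treatment, name 1 line only, and call the samples independent without saying whether they were separate cultures, so that p-values cover no more than the spread among these 6 libraries, possibly a technical one.

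CDK inhibitors and the Rb family form the brake on entry into the cell cycle. The CIP/KIP proteins p21 (Cdkn1a), p27 (Cdkn1b) and p57 (Cdkn1c) bind cyclin-CDK complexes, while the INK4 proteins p16 (Cdkn2a), p15 (Cdkn2b) and p18 (Cdkn2c) bind Cdk4 and Cdk6 and keep D-type cyclins from activating them. Active CDKs phosphorylate the pocket proteins Rb (Rb1), p107 (Rbl1) and p130 (Rbl2), which otherwise hold E2F factors in check, and p107 and p130 also join the MuvB core in the repressor complex called DREAM. Rbl1 is itself a known E2F target gene. Cdkn2a also encodes p19Arf, a protein that stabilises p53, from another first exon, and a count per gene does not separate it from p16.

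Start-site windows are shown for the members with the smallest p between the groups, Cdkn2c and Rbl1, and for Cdkn2a, the other member with an E2F motif. RefSeq windows of 300 bases (250 before to 50 after a start site, build GRCm38.p6) were found for 7 of the 9 genes, 10 windows in all, and not for Cdkn1c and Rb1. The motif searched for E2F was any of TTTCCCGC, TTTCGCGC, TTTGCCGC and TTTGGCGC on both strands. It was present in 744 of 32851 windows of this length in the table (2.26%), and among the members in the window of Rbl1 and the upstream window of Cdkn2a, 1 match each. The other window of Cdkn2a (chr4:89282143-89282442) held no match, and the 2 windows were not assigned to p16 or p19Arf here. The window of Rbl1 (chr2:157204485-157204784, minus strand) and the upstream window of Cdkn2a (chr4:89294570-89294869, minus strand) are printed 5′ to 3′ with the E2F motif in capitals, and the upstream window of Cdkn2c (chr4:109666707-109667006, minus strand) with the GC box GGGCGG in capitals.
Rbl1: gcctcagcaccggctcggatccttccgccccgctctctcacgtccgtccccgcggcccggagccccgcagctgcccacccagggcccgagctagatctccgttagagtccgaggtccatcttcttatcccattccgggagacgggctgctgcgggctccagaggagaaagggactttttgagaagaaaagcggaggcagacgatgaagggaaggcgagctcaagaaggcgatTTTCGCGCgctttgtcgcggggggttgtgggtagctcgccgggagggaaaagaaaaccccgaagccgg
Cdkn2a: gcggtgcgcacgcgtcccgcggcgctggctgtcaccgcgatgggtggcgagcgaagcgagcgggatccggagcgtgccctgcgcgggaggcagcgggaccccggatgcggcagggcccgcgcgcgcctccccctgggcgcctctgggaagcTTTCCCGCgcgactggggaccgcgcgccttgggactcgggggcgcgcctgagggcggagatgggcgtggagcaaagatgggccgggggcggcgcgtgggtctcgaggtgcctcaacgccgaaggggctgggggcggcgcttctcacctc
Cdkn2c: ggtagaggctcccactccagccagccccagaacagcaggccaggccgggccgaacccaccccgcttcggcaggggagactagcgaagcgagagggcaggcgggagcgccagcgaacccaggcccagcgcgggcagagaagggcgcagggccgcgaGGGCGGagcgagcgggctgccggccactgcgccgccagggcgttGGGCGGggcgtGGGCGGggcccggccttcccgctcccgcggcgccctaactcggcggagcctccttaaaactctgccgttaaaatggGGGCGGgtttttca
In Rbl1 the motif began 18 bases before the start site and in Cdkn2a 99 bases before it. The upstream window of Cdkn2c held 4 GC boxes, a motif found on either strand in 35.7% of all windows, and had a GC content of 73.3% against a median of 52.7% over all windows. The other window of Cdkn2c held 0 GC boxes and had a GC content of 44%. GC boxes were not particular to Cdkn2c, as each of the 7 genes had at least 1. The printed windows of Cdkn2a (GC content 77%) and Rbl1 (64%) held 3 and 1, left there in lower case. The cell cycle homology region motif TTTGAA, which lies in promoters bound by MuvB complexes and was searched on both strands, was found in the windows of Cdkn2b and Rbl2, and in 17.9% of all windows. No matches of these motifs overlapped each other in the members' windows. A match is a string of letters and not a measured binding site.

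Reads in genes ranged from 17015581 to 32671039 a library, and genes with at least 1 read from 10571 to 10982 in TP-DSCs against 12504 to 14434 in DP-DSCs. The library names carry a number, 3840 for replicate 1 of each group and 4140 for replicates 2 and 3, whose meaning the labels do not give. The labelled cell type was checked against markers. The 6 epithelial markers summed to between 7730 and 10099 counts per 1000000 gene reads (CPM) in every library. The 7 fibroblast markers reached at most 3.19 CPM, and 5 of them, Col1a2, Col3a1, Pdgfrb, Dcn and Lum, had no reads in any library. The 6 immune markers with a row summed to between 5.14 and 48.0 CPM in DP-DSCs and between 0 and 17.3 CPM in TP-DSCs, and Cd3e had no reads. Most of this was Cd68, at 47.3 CPM in DP-DSCs replicate 1 and 17.3 CPM in TP-DSCs replicate 1. Ptprc, Lyz2 and Csf1r had reads in DP-DSCs replicate 1 only, with counts of 3, 1 and 17, and Cd79a had 5 reads in DP-DSCs replicate 3 only. Endothelial markers reached at most 4.995 CPM and smooth muscle markers 5.79 CPM. Nerve and glia markers reached 13.4 CPM, from Tubb3 in TP-DSCs replicate 3 (417 reads). In sorted cells measured in bulk, fewer cells with a transcript and less of it per cell cannot be told apart.

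No member passed a false discovery rate of 0.05 in the comparison of TP-DSCs with DP-DSCs. Cdkn2c and Rbl1 had the largest values above 0, Cdkn2a and Cdkn2b the only sizeable ones below 0, and Cdkn1a, the most abundant member, lay close to 0. The test was edgeR's quasi-likelihood test over 11925 genes with Benjamini-Hochberg adjustment, which called 0 of 9 members. It called 0% of all tested genes, so the count of members is that of the background. At an unadjusted p under 0.05 in edgeR there were 0 members, against 6.10% of all tested genes, and the smallest adjusted p of a member was 0.883 (Cdkn2c). DESeq2 also called 0 members, against 0.780% of all tested genes. It had 1 member (Cdkn2c) at an unadjusted p under 0.05, against 6.11% of those genes, or 6.30% of the 11565 to which DESeq2 gave a p. Limma-voom called 0 members, with 1 (Rbl1) at an unadjusted p under 0.05, where it had 0% of all tested genes past the adjusted threshold and 8.05% past the unadjusted one. By log2 fold change 6 members lay above 0 and 3 below it. Their median was 0.11, beside a median of -0.02 over all tested genes. In 1 member, Cdkn2c, every TP-DSC library lay above every DP-DSC library, as in 3.87% of all tested genes, and in 0 members every one lay below, as in 8.56% (12.4% in either direction).

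**Figure D1:**
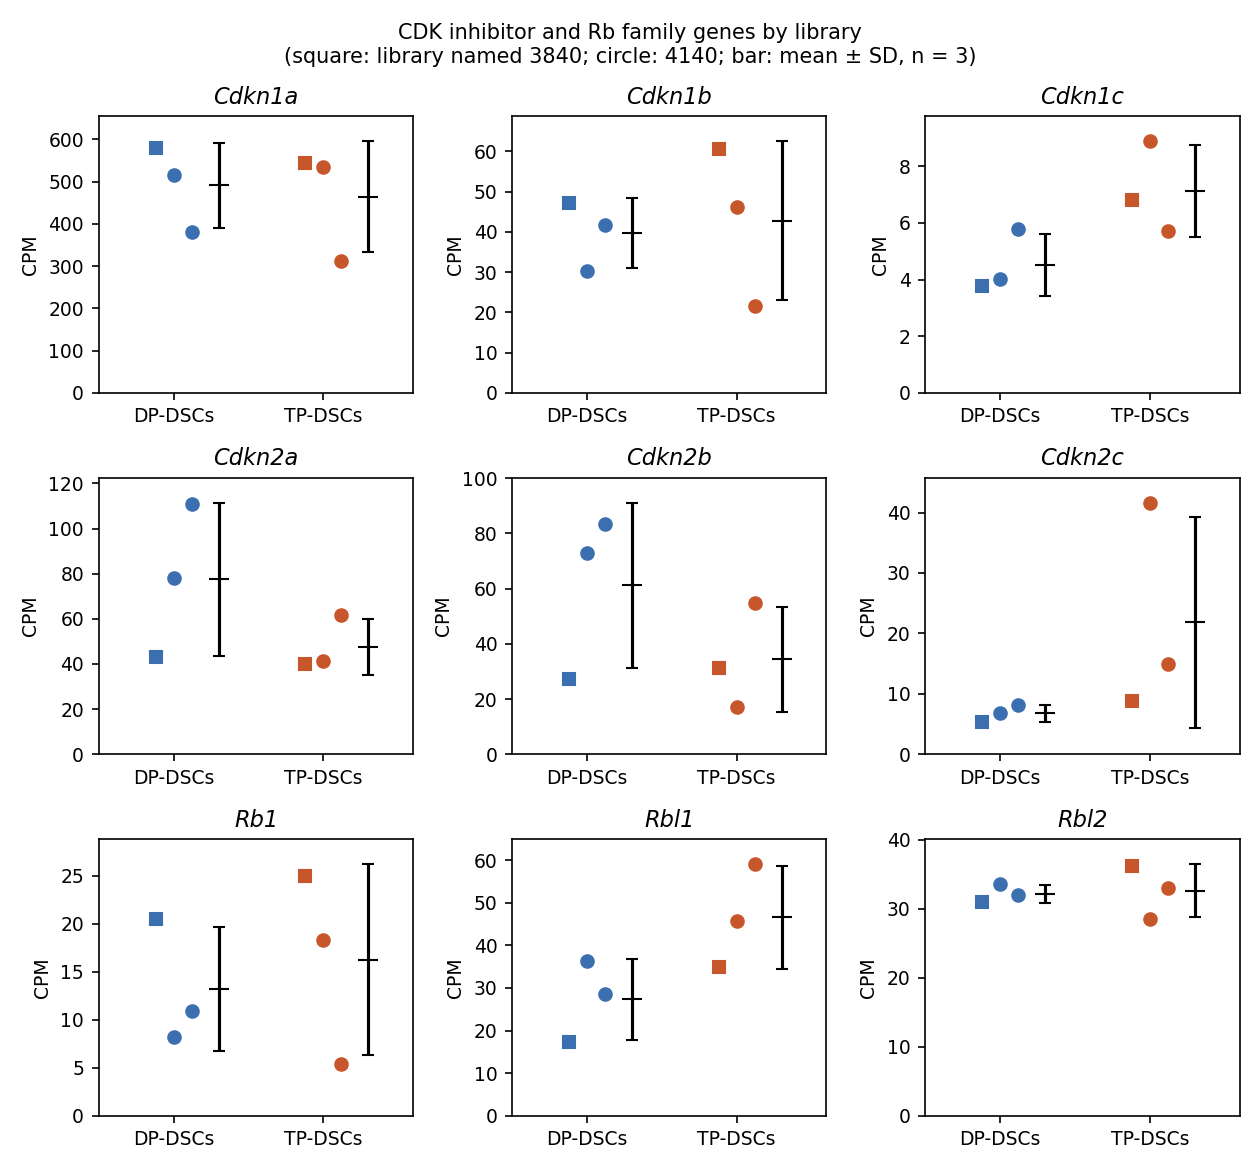
CPM of each gene (vertical axes start at 0) in the 3 DP-DSC libraries (blue) and the 3 TP-DSC libraries (orange), with squares for libraries named 3840, circles for those named 4140, and black bars for the mean ± SD. Only in Cdkn2c do the groups not overlap, and there 1 TP-DSC library stands at 41.6 CPM while the other two lie at 8.86 and 14.999 CPM.

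Among the CIP/KIP genes, p21 dominated the reads in both subpopulations and none of the 3 genes separated the groups. Cdkn1a stood at 579, 515 and 382 CPM in DP-DSCs replicates 1, 2 and 3 and at 544, 536 and 313 CPM in TP-DSCs replicates 1, 2 and 3. The groups overlapped, and replicate 3 was the lowest library of each. The means were 492 ± 100.6 CPM (SD, n = 3) in DP-DSCs and 464 ± 131 CPM (SD, n = 3) in TP-DSCs. The log2 fold change (TP-DSCs over DP-DSCs, with libraries scaled by TMM, the trimmed mean of M values) was -0.09 ± 0.30 (SE) with a 95% interval from -0.79 to 0.61, so changes in Cdkn1a up to 1.53-fold higher or to 0.580 of the DP-DSC level lay inside it. Cdkn1a took 88.9 to 93.8% of the reads of the 3 CIP/KIP genes in DP-DSCs and 89.0 to 92.0% in TP-DSCs.

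Cdkn1b, which holds Cdk2 in check in resting cells, stood at 47.2, 30.2 and 41.7 CPM in DP-DSCs replicates 1, 2 and 3 and at 60.6, 46.2 and 21.7 CPM in TP-DSCs replicates 1, 2 and 3. The TP-DSC libraries held both the highest and the lowest value of the 6. Cdkn1b had a log2 fold change of 0.11 ± 0.45 (SE), with a 95% interval from -0.95 to 1.16. Its sign turned to -0.33 without TP-DSCs replicate 1 and to -0.09 without DP-DSCs replicate 2, while that of Cdkn1a turned to 0.06 when DP-DSCs replicate 1 was left out and to 0.15 when TP-DSCs replicate 3 was.

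Cdkn1c, an imprinted gene expressed from the maternal allele, was the member with the fewest reads in the DP-DSC libraries. It stood at 3.77, 4.01 and 5.77 CPM in DP-DSCs replicates 1, 2 and 3 and at 6.81, 8.87 and 5.70 CPM in TP-DSCs replicates 1, 2 and 3. The groups overlapped only in that DP-DSCs replicate 3 lay just above TP-DSCs replicate 3. Its lowest count was 123 reads in DP-DSCs replicate 1, with a 95% exact Poisson interval from 102 to 147 reads that covers counting error only. Cdkn1c had a log2 fold change of 0.64 ± 0.91 (SE), the widest error among the members. The biological coefficient of variation fitted for Cdkn1c was 0.869, against 0.284 for Cdkn1a, the lowest of the 9. Fitted values are drawn toward those of other genes, and the value common to all tested genes was 0.750. The fitted value of Cdkn1c is thus not the spread seen within its groups. In CPM that was 4.52 ± 1.09 in DP-DSCs and 7.13 ± 1.61 in TP-DSCs (SD, n = 3 each).

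The INK4 genes differed in direction, with Cdkn2c above 0 and its relatives Cdkn2a and Cdkn2b below 0, none past the threshold. Cdkn2c (p18) stood at 5.34, 6.89 and 8.10 CPM in DP-DSCs replicates 1, 2 and 3 and at 8.86, 41.6 and 14.999 CPM in TP-DSCs replicates 1, 2 and 3. The groups did not overlap, but TP-DSCs replicate 1 lay close to the highest DP-DSC library. The means were 6.78 ± 1.39 CPM (SD, n = 3) in DP-DSCs and 21.8 ± 17.4 CPM (SD, n = 3) in TP-DSCs. Cdkn2c had a log2 fold change of 1.64 ± 0.73 (SE), with a 95% interval from -0.07 to 3.36 and an edgeR adjusted p of 0.883, which ranged from 0.212 to 1 over the alternatives. Without TP-DSCs replicate 2 the log2 fold change was 0.81. Of the reads of Cdkn2a, Cdkn2b and Cdkn2c together, Cdkn2c made up 4 to 7.05% in the DP-DSC libraries, 11.1 and 11.4% in TP-DSCs replicates 1 and 3, and 41.6% in TP-DSCs replicate 2.

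Cdkn2a stood at 43.2, 78.3 and 111 CPM in DP-DSCs replicates 1, 2 and 3 and at 39.9, 41.1 and 61.8 CPM in TP-DSCs replicates 1, 2 and 3. DP-DSCs replicate 1, named 3840, lay among the TP-DSC values, and the other DP-DSC libraries lay above all of them. The log2 fold change of Cdkn2a was -0.72 ± 0.36 (SE), with a 95% interval from -1.57 to 0.13 and an edgeR adjusted p of 0.991 (0.324 to 1 over the alternatives). It was -1.02 without DP-DSCs replicate 1 and -0.36 without DP-DSCs replicate 3. Reads of p16 and p19Arf are summed in these values.

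Cdkn2b (p15), a known target of TGF-beta signalling, stood at 27.2, 72.8 and 83.5 CPM in DP-DSCs replicates 1, 2 and 3 and at 31.2, 17.3 and 54.9 CPM in TP-DSCs replicates 1, 2 and 3. The libraries high in Cdkn2b were the ones high in Cdkn2a, namely DP-DSCs replicates 2 and 3 and TP-DSCs replicate 3. The log2 fold change of Cdkn2b was -0.83 ± 0.53 (SE), with a 95% interval from -2.07 to 0.40. It was -1.28 without TP-DSCs replicate 3 and -0.50 without TP-DSCs replicate 2. Both genes lie on the minus strand of chromosome 4, Cdkn2a from 89274471 to 89294653 and Cdkn2b from 89306299 to 89311039, with 11645 bases between them (GRCm38, GENCODE M21). Cdkn2a had 1.07 to 1.59 reads per read of Cdkn2b in DP-DSCs and 1.13 to 2.38 in TP-DSCs. Cdkn2c lies on the same chromosome from 109660876 to 109667189.

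Split by the number in the library names, the pair named 3840 and the libraries named 4140 differed most for these genes. The difference in mean log2 CPM (prior count 2, TP-DSCs minus DP-DSCs) of Cdkn2b was 0.23 in the single pair named 3840 and -1.38 in the libraries named 4140. That of Cdkn2a was -0.08 and -0.92, and that of Cdkn2c 0.75 and 1.69, in the same order. The pair named 3840 has no replicate, and the difference between the pairs was not tested. With the number as a block, edgeR gave log2 fold changes of -0.65 for Cdkn2a, -0.71 for Cdkn2b, 1.51 for Cdkn2c and 0.79 for Rbl1, none past the threshold.

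**Figure D2:**
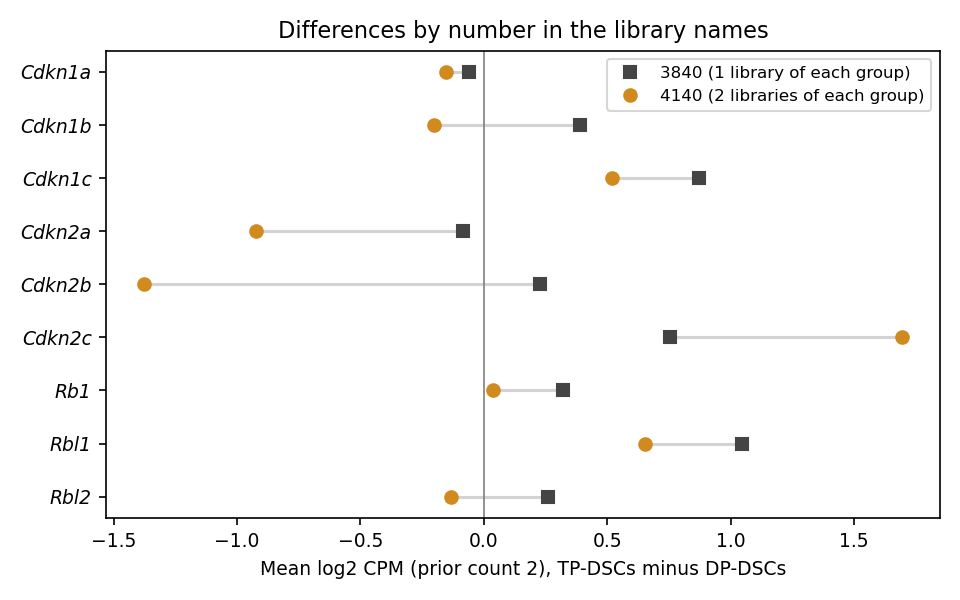
Difference in mean log2 CPM between TP-DSCs and DP-DSCs (horizontal axis, prior count 2) for each gene, as squares for the 2 libraries named 3840 and circles for the 4 libraries named 4140. Cdkn1c, Cdkn2c, Rb1 and Rbl1 lie above 0 and Cdkn1a and Cdkn2a below 0 with both numbers, whereas Cdkn1b, Cdkn2b and Rbl2 lie on opposite sides of 0.

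Among the pocket protein genes, Rbl1 was higher on average in TP-DSCs without passing the threshold, while Rbl2 lay close to 0. Rbl1 (p107) stood at 17.2, 36.3 and 28.5 CPM in DP-DSCs replicates 1, 2 and 3 and at 34.9, 45.8 and 59.1 CPM in TP-DSCs replicates 1, 2 and 3. The overlap came from DP-DSCs replicate 2 and TP-DSCs replicate 1, and within each number in the library names the TP-DSC libraries were the higher ones. The means were 27.3 ± 9.58 CPM (SD, n = 3) in DP-DSCs and 46.6 ± 12.1 CPM (SD, n = 3) in TP-DSCs. The log2 fold change of Rbl1 was 0.76 ± 0.34 (SE), with a 95% interval from -0.05 to 1.56 and an edgeR adjusted p of 0.898 (0.360 to 1 over the alternatives), and it lay between 0.51 and 0.95 over the alternatives. The difference in mean log2 CPM was 1.05 in the pair named 3840 and 0.65 in the libraries named 4140.

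Rbl2 (p130), the pocket protein typical of resting cells, was among the steadiest members. It stood at 30.9, 33.6 and 32.0 CPM in DP-DSCs replicates 1, 2 and 3 and at 36.2, 28.6 and 33.0 CPM in TP-DSCs replicates 1, 2 and 3. The TP-DSC libraries lay on both sides of the DP-DSC libraries. Rbl2 had a log2 fold change of 0.01 ± 0.29 (SE), with a 95% interval from -0.68 to 0.70. Its value crossed 0 in 6 of 17 alternatives and stayed between -0.15 and 0.13.

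Rb1 stood at 20.5, 8.17 and 10.9 CPM in DP-DSCs replicates 1, 2 and 3 and at 25.01, 18.3 and 5.41 CPM in TP-DSCs replicates 1, 2 and 3. The highest library of each group was the one named 3840, and the lowest of all 6 was TP-DSCs replicate 3. Rb1 had a log2 fold change of 0.29 ± 0.77 (SE), with a 95% interval from -1.51 to 2.10, and it turned to -0.26 without TP-DSCs replicate 1. Lpar6, a receptor gene on the opposite strand inside the span of Rb1, stood at 16.8 ± 5.75 CPM (SD, n = 3) in DP-DSCs and 10.4 ± 3.77 CPM (SD, n = 3) in TP-DSCs, and the strand setting of the counting is not given in the sources used here. Rbl2 likewise overlaps Aktip on the opposite strand, so reads where the genes overlap may have been assigned differently.

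The make-up of the pocket protein reads differed between libraries. Rbl1 made up 25.1, 46.5 and 39.9% of them in the DP-DSC libraries (replicates 1, 2 and 3) against 36.3, 49.5 and 60.6% in the TP-DSC libraries. Rbl2 made up 43.0 to 45.1% in DP-DSCs and 30.8 to 37.7% in TP-DSCs, 2 ranges that did not overlap. The level of Rbl2 itself did overlap, with means of 32.1 and 32.6 CPM, so its lower share reflects a larger sum of the 3 genes. Rb1 made up 10.5 to 29.8% in DP-DSCs and 5.55 to 26.0% in TP-DSCs. The summed level of the 3 genes was 68.6 to 78.0 CPM in DP-DSCs and 92.7 to 97.4 CPM in TP-DSCs. These sums and shares were chosen after the values were seen and carry no test.

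**Figure D3:**
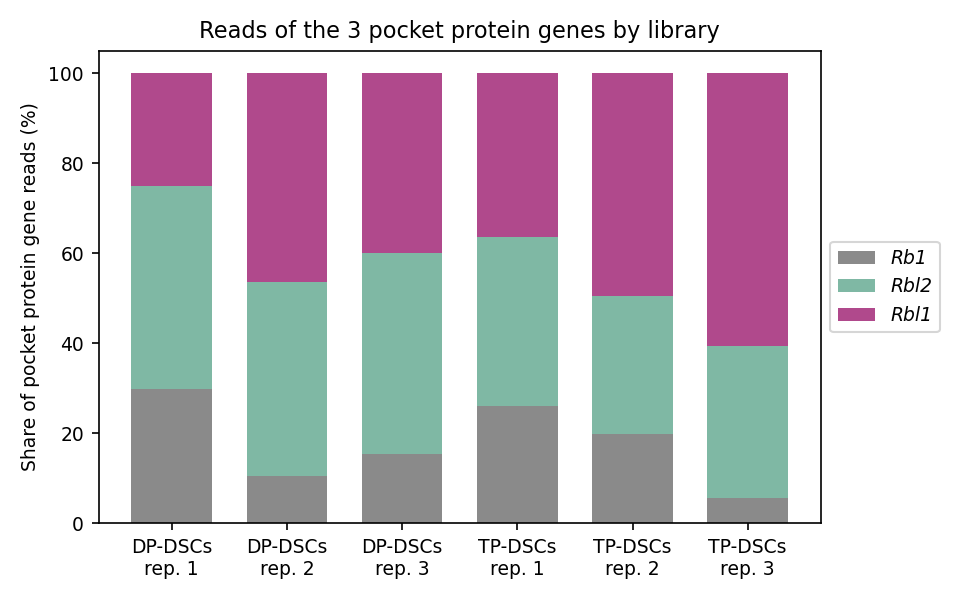
Share (%) of the reads of Rb1, Rbl2 and Rbl1 together that each gene took in each library, with DP-DSCs on the left and TP-DSCs on the right. The Rbl2 share lies between 43.0 and 45.1% in DP-DSCs and between 30.8 and 37.7% in TP-DSCs, while the Rbl1 share ranges from 25.1 to 60.6%. In CPM, the groups overlap for Rbl2.

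On average, levels per length put Cdkn1a, Cdkn2a and Cdkn2b above the other members in both groups. CPM was divided by the kilobases of exon in protein-coding transcripts (GENCODE M21). On that scale the order in DP-DSCs was Cdkn1a (181 ± 37.0 CPM per kilobase; SD, n = 3), Cdkn2a (66.1 ± 28.9), Cdkn2b (44.0 ± 21.5), Cdkn1b (8.72 ± 1.91), Rbl2 (6.53 ± 0.274), Rbl1 (5.62 ± 1.97), Rb1 (2.83 ± 1.39), Cdkn2c (2.52 ± 0.516) and Cdkn1c (2.28 ± 0.552). Only the neighbours Cdkn1a and Cdkn2a, and Cdkn2b and Cdkn1b, had ranges over the libraries that did not overlap. In TP-DSCs the leading genes were again Cdkn1a (171 ± 48.2 CPM per kilobase), Cdkn2a (40.6 ± 10.5) and Cdkn2b (24.8 ± 13.7). They were followed by Rbl1 (9.59 ± 2.49), Cdkn1b (9.40 ± 4.32), Cdkn2c (8.12 ± 6.48), Rbl2 (6.62 ± 0.782), Cdkn1c (3.60 ± 0.815) and Rb1 (3.49 ± 2.14). There the neighbours with ranges apart were Cdkn1a and Cdkn2a, Cdkn2b and Rbl1, and Rbl2 and Cdkn1c. Beyond neighbours, Cdkn2b overlapped others in TP-DSCs: its lowest value there, 12.4 CPM per kilobase in replicate 2, lay below Cdkn2c in the same library (15.5) and Cdkn1b in replicate 1 (13.3). Among 10896 tested genes with an exon length, Cdkn1a stood at the 97.2nd percentile of this level and Rb1 at the 21.4th. Cdkn2d (p19Ink4d), the INK4 gene outside the 9, stood at 7.87 ± 3.66 CPM over the DP-DSC libraries and 6.09 ± 1.01 CPM over the TP-DSC libraries (SD, n = 3 each), with a log2 fold change of -0.40 ± 0.89 (SE).

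**Figure D4:**
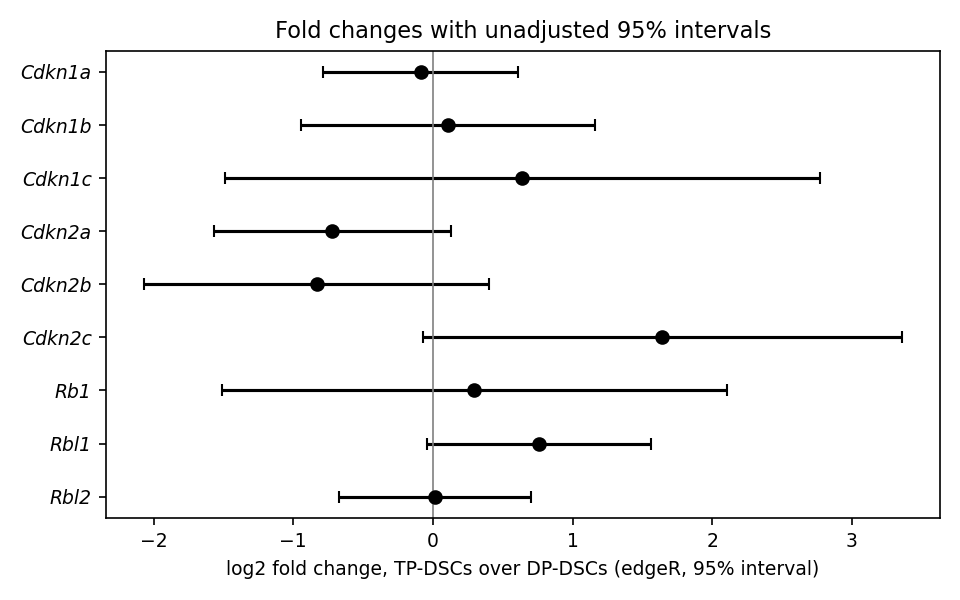
Log2 fold change of each gene (TP-DSCs over DP-DSCs; points) with its unadjusted 95% interval from edgeR (bars). Every interval includes 0, with Cdkn2c (lower bound -0.07) and Rbl1 (lower bound -0.05) nearest to lying above it.

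Of the other genes of the pathway, 148 in lists beside the members, 144 were tested and edgeR called 0. DESeq2 called 3 of them, Mki67, Cenpf and Cenpe, beside 93 (0.780%) of all 11925 tested genes. All 3 were on the list of DREAM targets and higher in TP-DSCs, where DESeq2 called 7 of all tested genes. The lists were chosen with earlier results of these data known, so these counts are not a test of enrichment. Among 13 cyclins and kinases of G1 and S phase, 10 were above 0 and the median log2 fold change was 0.11. Ccnd1 (cyclin D1), the partner of the kinases that INK4 proteins bind, stood at 916 ± 280 CPM over the DP-DSC libraries and 771 ± 135 CPM over the TP-DSC libraries (SD, n = 3 each). Cdk6 stood at 26.1 ± 5.37 and 15.2 ± 11.4 CPM, Cdk2 at 40.1 ± 10.1 and 48.7 ± 14.7 CPM and Ccna2 (cyclin A2) at 58.0 ± 27.4 and 86.8 ± 41.2 CPM, in the same order and all with overlapping groups.

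The list of E2F and DP factors, not all of which bind pocket proteins, gave a median log2 fold change of 0.20 over 9 tested genes, 7 of them above 0. E2f6, a repressor E2F without a pocket protein binding domain, stood at 28.9 ± 3.36 CPM over the DP-DSC libraries and 22.2 ± 2.40 CPM over the TP-DSC libraries (SD, n = 3 each). E2f6 was the only 1 of the 9 tested genes whose groups did not overlap, where 12.4% of all tested genes had no overlap. Its unadjusted p in edgeR was 0.296. E2f4, the main partner of p130 and p107, stood at 68.5 ± 9.69 and 79.2 ± 7.48 CPM, E2f1 at 23.8 ± 8.21 and 32.8 ± 13.9 CPM, and E2f8 at 11.8 ± 5.39 and 19.6 ± 5.40 CPM. In the MuvB list, 2 of 7 genes were above 0, with a median of -0.21. Foxm1, which joins MuvB at mitotic genes, stood at 20.4 ± 12.5 and 40.7 ± 13.0 CPM, a log2 fold change of 0.996 ± 0.472 (SE), and the core subunit Lin54 at 16.6 ± 5.01 and 28.2 ± 14.6 CPM. The other core subunits named by the rule, Rbbp4 and Lin37, had log2 fold changes of -0.42 ± 0.26 and -0.62 ± 1.56 (SE). Lin37 had 524, 233 and 0 reads in TP-DSCs replicates 1, 2 and 3.

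Genes that E2F and DREAM complexes control were followed by library beside Rbl1. The median deviation of 24 E2F target genes of replication from their mean log2 CPM was -0.86, 0.37 and 0.06 in the DP-DSC libraries (replicates 1, 2 and 3) against -0.05, 0.48 and 0.29 in the TP-DSC libraries. DP-DSCs replicate 1, with the lowest Rbl1, had the lowest value, but the library with the highest Rbl1, TP-DSCs replicate 3, lay below TP-DSCs replicate 2 and DP-DSCs replicate 2. For 24 DREAM target genes of G2 and M phase it was -0.87, 0.18 and -0.35 against 0.16, 0.76 and 0.45, the libraries being given in the same order, and TP-DSCs replicate 2 was again the highest. The part of this in the Rbl1 values was not tested. Of the E2F targets 19 of 24 were above 0, with a median log2 fold change of 0.34, beside 5752 of all 11925 tested genes above 0. Their median difference in mean log2 CPM was 0.67 in the single pair named 3840 and -0.07 in the libraries named 4140. Over all tested genes these medians were -0.06 and -0.16. An unadjusted p under 0.05 in edgeR was found for 1 E2F target (Pola1), against 6.10% of all tested genes. Pola1, Cdt1, Rrm2 and Mcm10, those with the smallest p, had log2 fold changes of 0.89, 0.57, 0.55 and 1.03. Of the DREAM targets 23 of 24 were above 0, with a median of 0.72 and 6 at an unadjusted p under 0.05 in edgeR, all higher in TP-DSCs, where 1.43% of all tested genes were. The list was chosen with earlier results of these data known, so this share is not a test of enrichment. The 4 with the smallest p were Mki67, Cenpf, Cenpe and Nusap1, at log2 fold changes of 1.30, 1.98, 1.69 and 1.43.

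Genes listed as degrading or regulating CDK inhibitors held 0 past the threshold. Cks1b, which helps the Skp2 ligase to recognise p27, stood at 34.8 ± 7.29 CPM over the DP-DSC libraries and 54.9 ± 14.3 CPM over the TP-DSC libraries (SD, n = 3 each), with a log2 fold change of 0.64 ± 0.28 (SE). Fbxw7 is on the list as the substrate receptor for cyclin E, which is not a CDK inhibitor. Fbxw7 stood at 19.5 ± 1.93 and 10.2 ± 1.85 CPM with no overlap, a log2 fold change of -0.96 ± 0.53 (SE). The ligase subunits Cul4a and Ddb1 had log2 fold changes of -0.42 ± 0.20 and -0.37 ± 0.21 (SE), with overlapping groups. Of 11 genes of this ligase list, 6 were above 0 and the median was 0.05. Among 20 transcriptional regulators, 11 were above 0, with a median of 0.03 and 1 gene, Klf4, at an unadjusted p under 0.05 in edgeR, where 6.10% of all tested genes had one. Klf4, which is known to activate Cdkn1a, stood at 86.8 ± 13.8 and 148 ± 14.2 CPM. Its values did not overlap between the groups, unlike those of Cdkn1a. Id2, an inhibitor of helix-loop-helix factors, stood at 172 ± 18.3 and 138 ± 1.02 CPM, and the transcription factor Ets2 at 96.9 ± 18.6 and 78.5 ± 3.25 CPM. Both had every TP-DSC library below every DP-DSC library, as did 8.56% of all tested genes. Mdm4, an inhibitor of p53, had a log2 fold change of 0.41 ± 0.24 (SE), with overlapping groups. Of 18 p53 target genes other than Cdkn1a, 10 were above 0 and the median log2 fold change was 0.03, beside -0.09 for Cdkn1a. Pmaip1 (Noxa) was their member with the smallest p, at 85.3 ± 38.2 and 53.4 ± 6.53 CPM with no overlap. It was followed by Plk3, Bax and Phlda3, with log2 fold changes of 0.58, 0.33 and -0.18 and overlapping groups.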

How the data were processed

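Libraries of sorted cells were made with a stranded, polyA-selecting kit, per the labels' protocols. The deposited values are whole-number read counts, 1 per gene symbol, and show no normalization by the authors. Per the submitters' processing notes, STAR 2.7.3a, Partek and DESeq2 3.5 were used with build mm10; the role of each tool, and the counting strand setting, is not given in the sources used here. Rows for reads in no gene (14.1 to 20.3% of reads) and ambiguous reads (1.09 to 1.86%) were left out. Groups follow the cell subtype label, with replicates numbered in order of deposit. Replicates differed by a chi-square of 112 to 306 per degree of freedom, so none was a duplicate deposit. CPM is the count per 1000000 gene reads. The tests ran in R 4.3.3 and edgeR 4.0.16 (filterByExpr with a minimum count of 10 and a minimum total of 15, TMM, quasi-likelihood test, group as the only term), which was tested on simulated data. The standard error is the log2 fold change over the square root of F. Alternatives used DESeq2 1.42.0 and limma 3.58.1. The members and lists were chosen with earlier results of these data known. From each list the text names up to 4 genes with the smallest p and a mean of at least 1 CPM, and Cdkn2d; for each member, the 2 genes with the most similar pattern among those whose mean log2 CPM was 2 or more and no predicted name. Lpar6, Aktip and the marker genes named fall outside that rule, Lpar6 and the markers being chosen after their values were seen.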

Additional observations from a re-analysis of the deposited data

How the results depend on the processing

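Members past the threshold numbered 0 under every alternative run, and Cdkn1c, Cdkn2a, Cdkn2b, Cdkn2c and Rbl1 kept the sign of their log2 fold change in all 17. Without each library in turn, members at an unadjusted p under 0.05 numbered 0 to 2, where 5.09 to 14.5% of all genes tested had such a p. They numbered 1 with the DESeq2 test (6.30% of the genes to which it gave a p) and with limma-voom (8.06% of all genes tested). There was also 1 with the number in the library names as a block (7.07%), the libraries named 4140 alone (12.2%) and genes with reads in all 6 libraries (3.80%). There were 2 with DESeq2 over all genes with its own filtering (8.38% of the genes to which it gave a p). The last 2 settings were chosen after seeing the data. Over all genes, DESeq2 called 93 of the 11925 filtered genes (7 higher, 86 lower). With its own filtering it called 278 of 23420 (42 higher, 236 lower). Of the pathway genes, chosen with earlier results known, it called 3 of 144 and 6 of 148. The sign turned in 4 members. Cdkn1b was -0.10 in limma-voom and -0.15 in the libraries named 4140, Rb1 -0.17 in limma-voom, and Rbl2 -0.0119 with upper-quartile factors, -0.0102 without a filter and -0.15 in the libraries named 4140. Without each library in turn, Cdkn1a ran from -0.30 to 0.15, Cdkn1b from -0.33 to 0.44, Rb1 from -0.26 to 0.78 and Rbl2 from -0.15 to 0.13. The cause was not tested. The labels give no replicate numbers shared between the groups, so pairing by replicate was not run; the number in the library names, which both groups share, was fitted as the block above.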

Other observations

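Further lists beside the pathway gave no gene past the threshold in edgeR. Of 8 corepressors that pocket proteins recruit, 4 were above and 4 below 0, with a median log2 fold change of -0.01. The histone methyltransferase Suv39h1 stood at 30.5 ± 14.2 CPM over the DP-DSC libraries and 50.5 ± 31.7 CPM over the TP-DSC libraries (SD, n = 3 each), and Rbbp7 at 297 ± 31.7 and 339.5 ± 11.7 CPM, while Kdm5a and Sin3b had log2 fold changes of -0.21 ± 0.23 and -0.24 ± 0.33 (SE). Of 9 tested genes associated with senescence, a state in which p21 and p16 are typically high, 6 were above 0, with a median of 0.19. Their median difference in mean log2 CPM was -0.05 in the pair named 3840 and -0.08 in the libraries named 4140. Over all tested genes these medians were -0.06 and -0.16. Lmnb1 (lamin B1), 1 of the 6 above 0, is typically low in senescent cells, so the count has no single direction. Lmnb1 stood at 86.1 ± 41.3 and 130.4 ± 29.0 CPM, and Hmga2 at 38.7 ± 4.96 and 50.4 ± 17.6 CPM. Glb1 and Hmga1 had log2 fold changes of -0.33 ± 0.44 and -0.52 ± 1.51 (SE). Hmga1 had 65, 1 and 478 reads in TP-DSCs replicates 1, 2 and 3.

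The genes with the pattern most like each member over the 6 libraries were taken from 9498 genes by Pearson's r of log2 CPM, as a description. For Cdkn2c they were Wdr90 (r = 0.994) and Mis12 (r = 0.990), for Rbl1 Fbxo17 (r = 0.987) and Tnpo3 (r = 0.986), for Cdkn2b Anxa6 (r = 0.997) and Eif4a3 (r = 0.985), and for Cdkn2a Saal1 (r = 0.971) and Trappc12 (r = 0.969). For Cdkn1a they were Abca3 (r = 0.991) and Arfgef2 (r = 0.989), for Cdkn1b Cope (r = 0.995) and Harbi1 (r = 0.989), and for Cdkn1c Myeov2 (r = 0.978) and Psmb5 (r = 0.976). For Rb1 they were Styk1 (r = 0.997) and Arcn1 (r = 0.995), and for Rbl2 Enox2 (r = 0.992) and Ier3ip1 (r = 0.990). With 6 libraries, between 31 (Cdkn2a) and 239 (Rb1) of these genes had an r over 0.9.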
